A study of Mus musculus with 2 samples.

Results

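The imprinted growth genes H19, Meg3, Peg3, Peg10, Mest, Plagl1, Cdkn1c, Grb10, Ndn and Zim1 were followed in GFP+ cells of the stromal vascular fraction of inguinal white fat, the mixture of cells that collagenase frees from that pad. They were chosen by name, as were the lists below, with earlier results of these data known. All 10 of the 10 names were found among the 24862 genes listed. A gene needed 10 counts in 1 of the libraries to be compared, which 18911 genes had, all of these among them. RNA sequencing of polyA RNA gave 2 libraries, 1 from Sox9 floxed and 1 from Sox9 PreASKO mice, the latter also titled KO. All mice were males 3 weeks of age, and both groups had received doxycycline on postnatal day 1. The design text equates GFP+ with Pref-1+ cells, Pref-1 being the product of Dlk1, and gives the pool as 6 mice without saying whether that is per genotype. The labels do not name the promoter that drives the recombinase or the GFP, nor the exons that are floxed. Since each genotype is a single pool, no test compares them, and every difference below is one between these 2 libraries.

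Imprinted genes are transcribed mainly from the allele of 1 parent, as set by DNA methylation laid down in the germ line. Many of them regulate fetal and early postnatal growth, are abundant in embryonic mesenchyme and decline as growth slows. In mice, the zinc finger protein Plagl1 is known to regulate several others, and the set is often described as an imprinted gene network. Mest and Dlk1 have been studied in adipose tissue in particular, Mest for fat cell size and Dlk1 as a mark of early precursors. The gene totals used here cannot tell the alleles apart, so nothing below measures imprinting itself.

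The sequences of the start regions are shown for the 3 genes that differed most, Meg3, Ndn and Zim1. Each line holds the 250 bases before an annotated transcript start in RefSeq, build GRCm38.p6, 5′ to 3′ on the gene's strand, with CpG dinucleotides, the sites that carry the methylation, in capitals. Meg3 has a second annotated start, which is not printed. For Zim1 the start used lies inside the gene's full span, so that 108 of the printed bases fall within the span given below.
Meg3, chr12:109540746-109540995, plus strand: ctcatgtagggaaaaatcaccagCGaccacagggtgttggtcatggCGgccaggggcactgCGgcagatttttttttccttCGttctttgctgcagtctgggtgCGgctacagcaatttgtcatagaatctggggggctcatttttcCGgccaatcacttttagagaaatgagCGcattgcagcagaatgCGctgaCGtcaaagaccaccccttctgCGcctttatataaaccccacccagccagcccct
Ndn, chr7:62348027-62348276, plus strand: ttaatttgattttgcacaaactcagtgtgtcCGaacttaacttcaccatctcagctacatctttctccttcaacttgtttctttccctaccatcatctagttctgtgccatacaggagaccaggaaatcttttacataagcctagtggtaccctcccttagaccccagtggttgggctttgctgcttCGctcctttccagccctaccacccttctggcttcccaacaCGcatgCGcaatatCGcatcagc
Zim1, chr7:6696433-6696682, minus strand: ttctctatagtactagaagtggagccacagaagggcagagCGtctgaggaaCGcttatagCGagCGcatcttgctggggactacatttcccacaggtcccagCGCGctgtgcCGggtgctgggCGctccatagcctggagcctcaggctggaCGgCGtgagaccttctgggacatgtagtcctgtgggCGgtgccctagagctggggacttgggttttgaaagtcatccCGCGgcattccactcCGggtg
The Meg3 stretch holds 10 CpG, the Ndn stretch 5 and the Zim1 stretch 14. RefSeq windows of 300 bases, which add 50 bases after the start, were matched for 7 of the 10 genes, in 11 windows. Mest, Grb10 and Meg3 each have more than a single window. The Mest windows that begin at chr6:30737800 and chr6:30737803 overlap almost wholly, so the 11 are not independent. Their median was 13 CpG and 61.3% G or C, beside 7 CpG and 52.7% over all 32851 windows. H19, Cdkn1c and Peg10 were not matched.

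Short motifs were searched on both strands of these 11 windows. GGGGCCCC, a palindrome known to bind Plagl1, occurred in 1 of the 11, that of Peg3, and in 1.08% of all windows. TGACAG, the core bound by Meis proteins, and ACAATG and ACAAAG, cores bound by Sox proteins, occurred in 0 of the 11, and in 19.2%, 12.6% and 18.7% of all windows. The Peg3 match begins at -201 from the transcript start used for that window. That start lies inside the full span of Peg3, so 43 of the printed bases fall within the span, and the match begins at -158 from the outer end of the gene. The stretch before the Peg3 start is shown because it holds that match.
Peg3, chr7:6730420-6730669, minus strand: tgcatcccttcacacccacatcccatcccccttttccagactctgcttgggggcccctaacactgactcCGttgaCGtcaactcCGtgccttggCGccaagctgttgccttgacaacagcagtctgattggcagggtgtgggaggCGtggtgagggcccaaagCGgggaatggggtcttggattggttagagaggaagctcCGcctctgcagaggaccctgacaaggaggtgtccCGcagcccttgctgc

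H19, Mest and Meg3 also carry microRNA hairpins within their gene bounds, whose mature 5′ arms are shown with the seed, bases 2 to 8, in capitals, from RefSeq, build GRCm38.p6. The seeds of these 3 differ from each other.
miR-675-5p, chr7:142577112-142577133, minus strand: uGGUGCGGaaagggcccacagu
miR-335-5p, chr6:30741314-30741336, plus strand: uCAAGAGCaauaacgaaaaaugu
miR-770-5p, chr12:109563710-109563731, plus strand: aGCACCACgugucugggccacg
The first lies within H19, the second within Mest and the third within Meg3. The values below are counts of the host genes in polyA RNA and say nothing of the level of these mature microRNAs.

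Counts totalled 37705236 for floxed and 29172653 for PreASKO. Sox9, the targeted gene, had 228 counts (floxed) against 73 (PreASKO), a ratio of 0.414 (0.313 to 0.541). The labels do not say whether reads from the floxed exons can be told from the rest of the transcript. Meis1, named with Sox9 in the series title, had 335 and 130 counts, a ratio of 0.502 (0.406 to 0.616). Ratios are PreASKO over floxed, of CPM, counts scaled to a library total of 1000000, and the parentheses give exact 95% intervals that cover counting error only. Differences in log2 are of CPM + 1, PreASKO minus floxed, a scale that understates the difference of low genes, and "past 2-fold" means beyond 1 in either direction on it.

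As shares of the library total all 10 imprinted genes were lower in the PreASKO library, and 3 of them, Meg3, Ndn and Zim1, were lower by more than 2-fold, although Grb10, Mest, Peg10, Cdkn1c, Peg3 and Plagl1 had ratios above 1 when set against stromal matrix transcripts, with an interval wholly above 1 for 5 of these 6, all but Grb10. Over all genes past the filter, 54.2% were lower at all and 5.94% lower by more than 2-fold. The interval of the ratio lay wholly below 1 for all 10, as it did for 39.9% of all genes. These shares of all genes are not matched for depth. They include genes with as few as 10 counts, whose intervals are wide, whereas every member had at least 468 counts (floxed). Together the 10 genes summed to 835 CPM (floxed) against 484 CPM (PreASKO), a ratio of sums of 0.580. Their median log2 difference was -0.68, beside -0.06 over all genes. On that scale 0 of the 10 were higher, whereas 45.8% of all genes were higher at all and 3.10% by more than 2-fold.

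**Figure D1:**
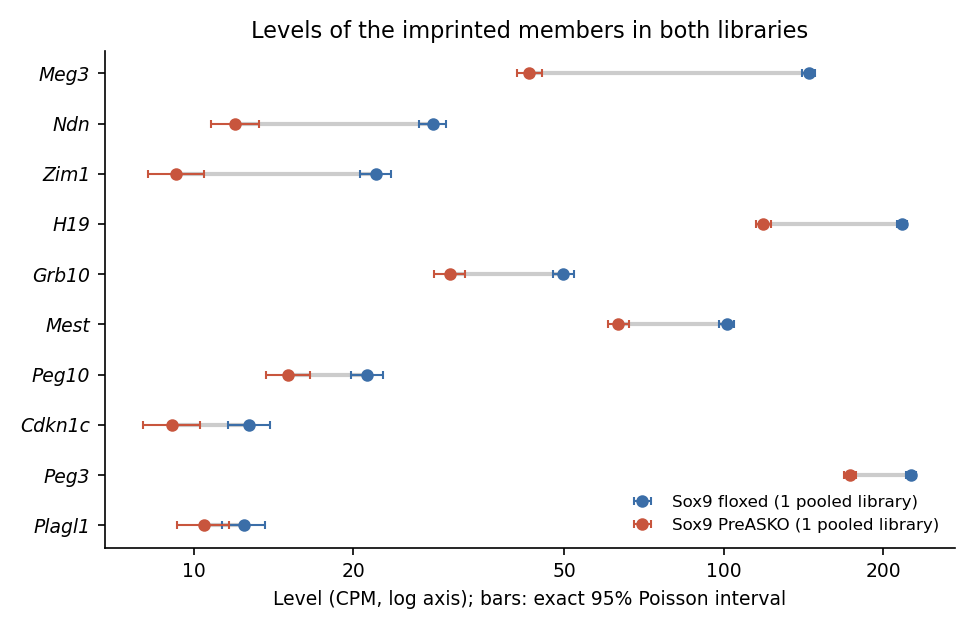
Level of each of the 10 imprinted genes in CPM (log axis) in the floxed library (blue) and the PreASKO library (red), with exact 95% Poisson intervals. On this scale of library totals the red point is left of the blue point for every gene, with the widest gap for Meg3, from 145 to 43.0 CPM, and the narrowest for Plagl1, from 12.4 to 10.4 CPM, where the intervals overlap.

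H19 and Meg3 are long noncoding RNAs, and both are made from the maternal allele. Meg3, which lies at chr12:109540996-109571729 in GRCm38 and is known as a growth-restraining RNA, had 5455 counts (floxed) against 1254 (PreASKO). Its level was 145 CPM (141 to 149) and 43.0 CPM (40.6 to 45.4), a ratio of 0.297 (0.279 to 0.316). No other member had a ratio as low, and 0.719% of all genes had a lower log2 difference than its -1.73. H19, at chr7:142575530-142578146, is the RNA whose locus is switched against Igf2 in most mesodermal tissues. It had 8176 counts (floxed) against 3469 (PreASKO), 217 and 119 CPM, a ratio of 0.548 (0.527 to 0.571).

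Zinc finger proteins make up 3 of the members. Peg3, at chr7:6703892-6730462, is a paternally expressed factor that marks several stem and progenitor cells in mice. It was the most abundant member by count, with 8523 counts (floxed) against 5054 (PreASKO), 226 and 173 CPM, and its ratio was 0.766 (0.740 to 0.794). Its neighbour Zim1, at chr7:6674444-6696540 and expressed from the maternal allele, went from 830 to 270 counts, 22.0 and 9.26 CPM, a ratio of 0.420 (0.365 to 0.483). Plagl1, at chr10:13090832-13131694, the factor that heads the network in mice, differed least, with 468 and 304 counts. Its levels of 12.4 and 10.4 CPM gave a ratio of 0.840 (0.724 to 0.972).

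Growth inhibitors that act inside the cell are 3 further members. Cdkn1c, at chr7:143458339-143461059, encodes p57, which blocks cyclin-dependent kinases. It had 479 counts (floxed) against 265 (PreASKO), 12.7 and 9.08 CPM, a ratio of 0.715 (0.613 to 0.833). Grb10, at chr11:11930499-12037428, encodes an adaptor that dampens signalling of the insulin and IGF1 receptors. It had 1877 and 886 counts, 49.8 and 30.4 CPM, a ratio of 0.610 (0.563 to 0.661). Ndn, at chr7:62348277-62349928, encodes necdin, a MAGE-family protein known to restrain the cell cycle and, in mice, adipocyte formation. It went from 1064 to 349 counts, 28.2 and 12.0 CPM, a ratio of 0.424 (0.375 to 0.479).

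The 2 remaining members are Mest and Peg10. Mest, at chr6:30733506-30748466, encodes a membrane protein of the hydrolase fold that rises in mouse fat as adipocytes enlarge. It had 3821 counts (floxed) against 1844 (PreASKO), 101 and 63.2 CPM, a ratio of 0.624 (0.590 to 0.660). Peg10, at chr6:4747306-4760517, derives from a retrotransposon and is needed in the mouse placenta. It had 799 and 439 counts, 21.2 and 15.0 CPM, a ratio of 0.710 (0.631 to 0.799).

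Genes of either parental origin were lower as shares of the library total. The 5 members expressed from the maternal allele (H19, Meg3, Cdkn1c, Grb10 and Zim1) had a median log2 difference of -0.86, with ratios between 0.297 and 0.715. The 5 expressed from the paternal allele (Peg3, Peg10, Mest, Plagl1 and Ndn) had a median of -0.47, with ratios between 0.424 and 0.840. The ranges of the ratios overlapped, and no test compares the groups of 5.

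Per kilobase of transcript, H19 was the highest member in both libraries, at 94.9 CPM per kb in floxed and 52.0 in PreASKO cells. Mest followed at 38.0 to 42.5 CPM per kb in floxed cells, depending on the annotated transcript, and Peg3 at 26.0. Peg10, Zim1 and Plagl1 were the lowest in floxed cells, at 3.18, 2.86 and 2.36 CPM per kb, and the counting intervals of Peg10 and Zim1 overlapped. In PreASKO cells Zim1 stood last, at 1.20 CPM per kb, below Plagl1 at 1.98, and there the intervals of Peg10 and Plagl1 overlapped. Meg3 could not be placed, since its annotated transcripts of 1896 to 14548 bases put it anywhere from 9.94 to 76.3 CPM per kb in floxed cells. Ndn, Grb10 and Cdkn1c lay between, with Ndn at 7.64 to 17.1, Grb10 at 9.84 to 10.5 and Cdkn1c at 6.68 to 6.73 CPM per kb in floxed cells.

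Counts in the deposited table come as raw and as repeat-distributed counts, and the members differ in which they have. How repeat-distributed counts were made is not documented in the sources used here, and the intervals treat them as counts, which leaves out any error of that distribution. H19, Peg3, Ndn and Plagl1 had raw counts alone, and Zim1 and Cdkn1c repeat-distributed counts alone. Grb10 rested almost wholly on repeat-distributed counts, with 12 and 5 raw counts. Meg3 had both, and its ratio was 0.269 (0.248 to 0.292) in raw counts and 0.350 (0.318 to 0.384) in repeat-distributed counts, each scaled to its own total. Mest had 20 and 16 raw counts beside its repeat-distributed ones, and was not lower in the raw counts alone. In the authors' deposited table the log2 fold of Meg3 was -1.56, that of Zim1 -1.26 and that of Ndn -1.24, and those of the other 7 members ran from -0.87 for H19 to -0.25 for Plagl1.

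Of 8 further genes of the network, 7 were lower, none by more than 2-fold, with a median log2 difference of -0.39. Dcn, which encodes the matrix proteoglycan decorin, had a ratio of 0.519 (0.515 to 0.524), and Igf2r, the receptor that clears Igf2, one of 0.593 (0.565 to 0.622). Slc38a4, an amino acid transporter gene, had a ratio of 0.681 (0.597 to 0.777), Gnas, which encodes a G protein subunit, one of 0.756 (0.750 to 0.762), and Sgce, a sarcoglycan gene, one of 0.763 (0.721 to 0.808). Igf2, the growth factor gene itself, stood at 32.0 CPM (floxed) against 26.0 CPM (PreASKO), a ratio of 0.814 (0.742 to 0.892), and Dlk1 at 28.2 and 24.0 CPM, a ratio of 0.850 (0.772 to 0.936). Gatm, an enzyme gene of creatine synthesis that is imprinted in mouse placenta, was the exception, at 222 and 305 CPM, a ratio of 1.37 (1.33 to 1.42).

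Other imprinted genes were not lower throughout. Of 24 paternally expressed genes listed, 18 passed the filter, 15 lower and 3 higher, with a median log2 difference of -0.40. Snrpn, a small ribonucleoprotein gene, had a ratio of 0.364 (0.263 to 0.497), Zrsr1, a splicing factor gene, one of 0.447 (0.376 to 0.529) and Airn, which overlaps Igf2r on the opposite strand, one of 0.673 (0.580 to 0.780). Whether counting used strand is not given in the sources used here, so reads of Airn and Igf2r cannot be told apart where they overlap. Of 22 maternally expressed genes listed, 18 passed, 9 lower and 9 higher, with a median of -0.06. Both parental labels were assigned by gene name, and the allele used in these cells was not measured. Rian, a noncoding RNA downstream of Meg3, had a ratio of 0.385 (0.358 to 0.413), Slc22a2, an organic cation transporter gene, one of 0.215 (0.129 to 0.344) and Ano1, a chloride channel gene, one of 0.390 (0.336 to 0.450). Of 42 genes listed because they lie in or beside the members' imprinted clusters, 33 passed, 17 lower and 16 higher, with a median of -0.03. Cobl, an actin regulator gene beside Grb10, had 103 and 2 counts, and Rian and Snrpn, above, differed most after it. The cluster list shares genes with the paternal and the maternal list, which share none with each other. Igf2, Dlk1, Sgce and Slc38a4 of the network genes above are also in the paternal list, and Igf2r and Gnas in the maternal list.

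Genes listed for imprint upkeep, which include enzymes that set or oxidise DNA methylation, were divided. Of 19 measured, 9 were lower and 10 higher, with a median log2 difference of 0.01. Zfp445 and Zfp57, zinc finger genes whose products protect imprinted methylation, had ratios of 0.412 (0.368 to 0.459) and 0.515 (0.402 to 0.655). Tet2, which encodes an enzyme that oxidises methylcytosine, had a ratio of 0.455 (0.424 to 0.489). Of 11 fetal growth regulators listed, 7 passed the filter, 2 lower and 5 higher, with a median of 0.13. Igf2bp2 and Igf2bp3, whose products bind Igf2 mRNA, differed in direction, with ratios of 0.497 (0.394 to 0.622) and 1.84 (1.63 to 2.08), and Plagl2, a relative of Plagl1, had a ratio of 1.33 (1.18 to 1.49).

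**Figure D2:**
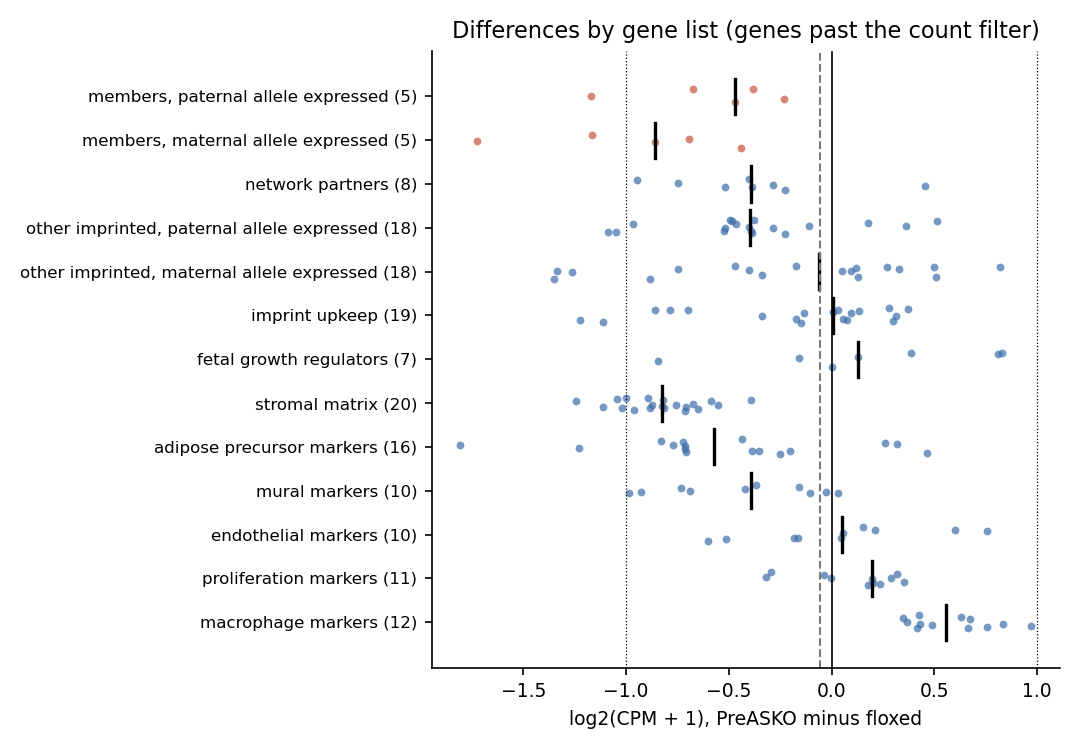
Difference in log2(CPM + 1), PreASKO minus floxed, of each gene past the count filter, by list (number of genes in brackets). Red points are the imprinted members, black bars list medians, the dashed line the median of all genes at -0.06 and dotted lines 2-fold; the member medians of -0.47 and -0.86 lie on the same side as the stromal matrix median of -0.82, while macrophage markers have a median of 0.56.

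The stromal content of the libraries differed alongside. Of the stromal matrix genes all 20 were lower in PreASKO (median log2 difference -0.82), and their sum was 47801 CPM (floxed) against 27929 CPM, a ratio of 0.584 beside the 0.580 of the imprinted members. The most abundant of them, Col1a2, Col3a1 and Sparc, had ratios of 0.564, 0.539 and 0.626. Of 16 adipose precursor markers, 13 were lower, with a median of -0.57 and a ratio of sums of 0.781. Fabp4, Itgb1 and Pi16, the most abundant of that list, had ratios of 0.870, 1.20 and 0.425. In such bulk libraries fewer cells of a type and less RNA per cell cannot be told apart.

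Markers of other cells went both ways. Although the cells were labelled GFP+ and Pref-1+, macrophage transcripts were plentiful, with Lyz2 at 2612 and 4408 CPM beside 28.2 and 24.0 CPM of Dlk1. These levels are not scaled to transcript length, and the stromal matrix list summed to 47801 and 27929 CPM. All 12 macrophage markers measured were higher, 13338 CPM (floxed) against 20222 CPM in sum, with Lyz2, C1qb and C1qc at ratios of 1.69, 1.35 and 1.55. All 9 mesothelial markers were lower, 177 against 4.94 CPM in sum, with Upk3b at 42.4 and 0.857 CPM, Lrrn4 at 41.8 and 2.19 CPM and Krt19 at 31.7 and 1.13 CPM, and Upk1b stood at 0 counts in PreASKO against 292 (floxed). Mural markers were lower in 9 of 10, with a ratio of sums of 0.672. Endothelial and proliferation markers had medians of 0.05 and 0.20. The skeletal muscle list, of which 6 of 12 passed the filter, 5 of them higher, summed to 24.8 and 34.4 CPM. Its 3 members at 0 in PreASKO had 4 counts or fewer in floxed, too few to show a loss. The part of these cell types in the imprinted differences was not tested.

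Set against the summed counts of the stromal matrix list instead of the library total, the members fell on both sides of 1. This divides every ratio by the 0.584 of the matrix sum, so the order of the members is unchanged. Meg3 remained lower, with a ratio of 0.509 (0.478 to 0.541), as did Zim1 at 0.720 (0.625 to 0.827), Ndn at 0.726 (0.641 to 0.820) and, more narrowly, H19 at 0.939 (0.902 to 0.977). Grb10 was within counting error of equal levels, at 1.04 (0.963 to 1.13). The other 5 were higher, from Mest at 1.07 (1.01 to 1.13) through Peg10 at 1.22 (1.08 to 1.37), Cdkn1c at 1.22 (1.05 to 1.42) and Peg3 at 1.31 (1.27 to 1.36) to Plagl1 at 1.44 (1.24 to 1.66). Against that reference 22.0% of all genes were lower, beside 4 of the 10 members. This scaling raised the median log2 difference of all genes by 0.67.

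With the adipose precursor list as the reference, the first 6 members in order, Meg3, Zim1, Ndn, H19, Grb10 and Mest, had intervals wholly below 1, and the other 4 had intervals that held 1. The reference is a sum, and Fabp4 alone made up 1110 of its 3138 CPM (floxed) and 966 of 2452 CPM (PreASKO). Its genes had library-total ratios from 0.275 for Dpp4 to 1.39 for Icam1. Pdgfra, Cd34 and Ly6a, at 0.607, 0.604 and 0.608, stood near Grb10 at 0.610 and Mest at 0.624. Whether Grb10 and Mest are lower against precursor markers thus depends on which markers weigh most. Meg3 stood at 0.380 (0.357 to 0.404) and Mest at 0.798 (0.755 to 0.844), while Peg3 was at 0.981 (0.947 to 1.02). On that scale 35.2% of all genes were lower, and the shift of the median of all genes was 0.30. The direction of Meg3, Ndn, Zim1 and H19 was thus the same under all 3 summed references, for H19 narrowly on the matrix list. The precursor reference was chosen after the data were seen. Its Dpp4, at 0.275, lay below the 0.297 of Meg3. Pi16, at 0.425, was level with Ndn at 0.424 and Zim1 at 0.420, and the other precursor markers had higher ratios. Against single precursor markers the direction of these members thus also depends on the marker. The genes of the matrix list ran from 0.423 for Postn, level with Ndn and Zim1, to 0.759 for Eln, on both sides of the 0.548 of H19. The intervals treat each reference sum as fixed.

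**Figure D3:**
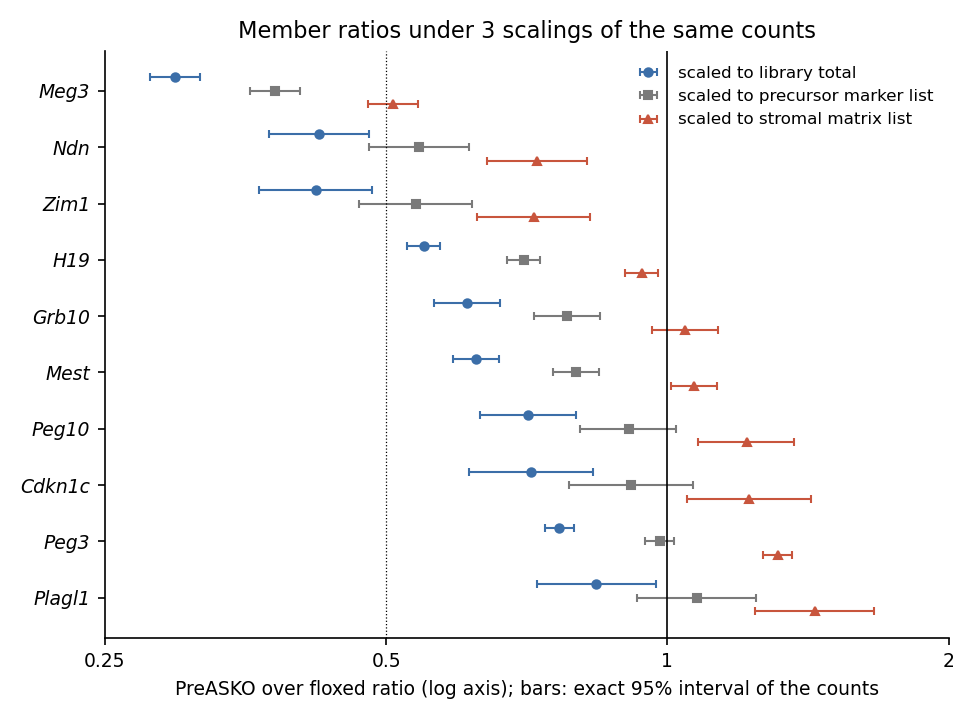
Ratio of PreASKO over floxed (log axis) for the 10 imprinted genes, scaled to the library total (blue circles), to the summed precursor markers (grey squares) and to the summed stromal matrix genes (red triangles), with exact 95% intervals of the counts. Meg3 stays left of 1 in all 3, from 0.297 to 0.509, while Plagl1 moves from 0.840 to 1.44.

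Ratios between neighbouring genes within a library do not depend on scaling. In the domain of Dlk1 and Meg3 on chromosome 12, Meg3 had 5.13 counts per count of Dlk1 (floxed) against 1.79 (PreASKO), a change of 0.349 (0.312 to 0.392). Rian, transcribed downstream of Meg3 from the same allele, was lower with it, although Meg3 per Rian also went from 1.61 to 1.24, a change of 0.772 (0.702 to 0.848). Mirg, farther downstream on that allele, had 164 and 159 counts and was not lower, so that Rian per Mirg went from 20.7 to 6.35, a change of 0.307 (0.243 to 0.389). Rtl1, which lies in the same domain, had 41 counts (floxed) against 2 (PreASKO), a ratio of 0.0630 (0.00739 to 0.243). The same limit of strand holds for antisense transcripts over Rtl1.

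H19 and Igf2 share a control region on chromosome 7. H19 per count of Igf2 went from 6.79 to 4.57, a change of 0.674 (0.609 to 0.745). Zim1 per count of Peg3 went from 0.0974 to 0.0534, a change of 0.549 (0.474 to 0.633). Ndn per count of its neighbour Magel2, also of the MAGE family, went from 9.50 to 5.82, a change of 0.612 (0.433 to 0.873). In the other pairs the change held 1 within its interval, at 0.992 (0.836 to 1.18) for Cdkn1c per Kcnq1ot1, a noncoding RNA of its domain that lies within Kcnq1 on the opposite strand, 0.931 (0.815 to 1.06) for Peg10 per Sgce, with which it shares a start region, and 1.07 (0.960 to 1.20) for Peg3 per Peg3os. Peg3os lies wholly within the span of Peg3 on the opposite strand, so its 957 and 528 counts may hold reads of Peg3, and those of Kcnq1ot1 reads of Kcnq1. These pairs were chosen after the values were seen, and the intervals cover counting error only.

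Genes within 500 kb of a member did not share its difference everywhere. Around H19 the 17 measured genes divided into 11 higher and 6 lower (median log2 difference 0.25), and Ctsd, a lysosomal protease gene, and Cd81, a tetraspanin gene, had ratios of 1.33 and 1.03. Around Cdkn1c, 10 of 18 were lower, with a median of -0.18. Around Peg3, 9 of 12 were lower, with a median of -0.50, and around Meg3, 5 of 6, with a median of -0.37. Some of the lower genes around Meg3 rested on few counts, such as Rtl1 with 41 (floxed) and 2 (PreASKO). Over all genes 54.2% were lower. Around the other members between 2 and 11 genes were measured, with medians between -0.38 and -0.20. Windows of Peg3 and Zim1, and of H19 and Cdkn1c, share genes.

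**Figure D4:**
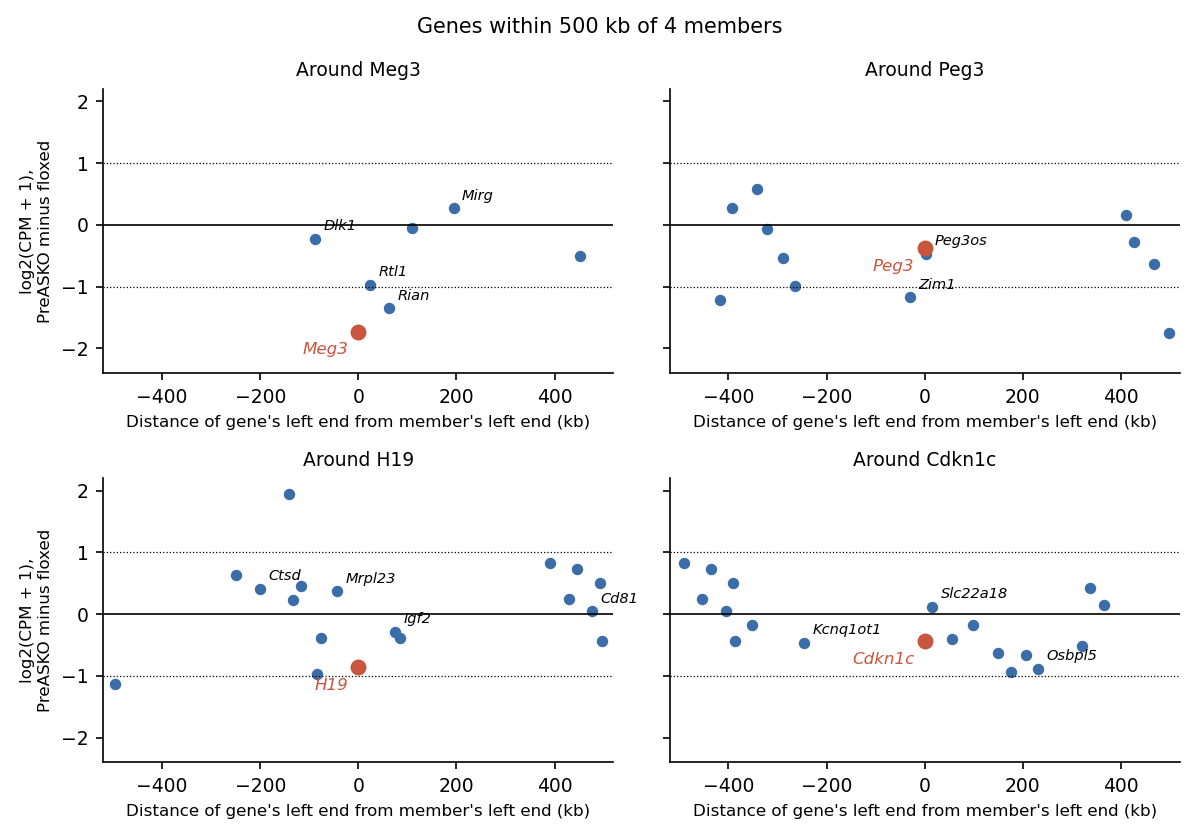
Difference in log2(CPM + 1), PreASKO minus floxed, of genes within 500 kb of Meg3, Peg3, H19 and Cdkn1c, against their distance from the member in kb; red points are the member, dotted lines 2-fold. Distances run between left ends. Around Meg3, Rian lies at 62.9 kb with a difference of -1.35 while Mirg, at 194 kb, has one of 0.27, and around H19 11 of the 17 other genes lie above 0.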

How the data were processed

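The authors deposited 1 table of 24862 genes that holds, per the file headers, whole-number raw counts and, as estimated counts, repeat-distributed counts for each library. The deposited fold is PreASKO over floxed with a log2 of that fold beside it, per the file headers. Per the submitters' processing notes the genome was mm10. Aligner, counter and strand setting: not given in the sources used here. Columns were matched to samples by KO and WT in the titles.

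Both counts were summed, rounded and scaled to library totals of 37705236 and 29172653, of which repeat-distributed counts made up 49.1% and 50.6%. Genes needed 10 or more counts in 1 library. Level intervals are exact Poisson and ratio intervals exact conditional (Clopper-Pearson), at 95%, for counting error only, since no molecular identifiers are named. With 1 library per group no p-values were computed, and depth limits genes with few counts. The calculation was tested on simulated data. GRCm38 positions and start windows came from RefSeq (GRCm38.p6), matched by gene ID for 93.3% of genes, and transcript lengths from GENCODE transcripts paired with RefSeq, with the RefSeq span where shorter. One listed symbol with 2 entries was left out of lists.

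The members and lists were chosen with earlier results of these data known. Named genes were Sox9, Meis1, the members, the network genes and, per list, the 3 largest absolute log2 differences among genes with 100 or more counts or, for marker lists, the 3 most abundant. Of the marker lists only the stromal, precursor, macrophage and mesothelial genes are printed. Others, including Upk1b, Mirg, Rtl1, Magel2, Kcnq1ot1, Peg3os, Ctsd and Cd81, were chosen after their values were seen. The 500 kb windows and within-library ratios were added then too. Alternatives used TMM in edgeR 4.0.16, size factors in DESeq2 1.42.0 (R 4.3.3), other references, pseudocounts, filters, single kinds of count and the authors' fold. Scripts ran in Python 3.11.15 with scipy 1.17.1, matplotlib 3.10.9, pandas 2.3.3 and numpy 2.4.6.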

Additional observations from a re-analysis of the deposited data

How the results depend on the processing

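Leaving out a replicate could not be run, since each genotype is a single library. No paired analysis was possible because there are no replicates to pair. Under TMM, size factors, a pseudocount of 0.1, no count filter or a minimum of 100 counts, all 10 members stayed lower and their differences within counting error of the values given, and 3 stayed past 2-fold. Scaled to the stromal matrix list, the members' median log2 difference became 0.0773 and 0 were past 2-fold. Reversed under it were Grb10 (0.0612), Mest (0.0934), Peg10 (0.27), Cdkn1c (0.27), Peg3 (0.39) and Plagl1 (0.49). Scaled to the adipose precursor list, a reference chosen after seeing the data, the median was -0.34, 1 member was past 2-fold and Plagl1 reversed (0.0961). A pseudocount of 5 also left 1 member past 2-fold. Raw counts alone, which measured 8 members, gave a median of -0.39 and reversed Mest (0.0470), from 20 and 16 raw counts. Repeat-distributed counts alone measured 6 members, all lower. The authors' deposited fold kept all 10 lower, with Meg3 at -1.56. Over all 18911 genes past the filter, 1124 were past 2-fold lower and 587 higher. These counts became 473 and 4417 on the matrix scale, and 715 and 1423 on the precursor scale. They were 3231 and 1606 with a pseudocount of 0.1, 165 and 84 with 5, and 3457 and 1735 by the authors' deposited fold. With a minimum of 100 counts, which fewer genes passed, they were 753 and 328, so these are not out of 18911. The share of all genes past 2-fold thus depended on the scale. With a pseudocount of 0.1 and by the authors' fold 3 members stayed past it. Under these 2 settings 3231 and 3457 of the 18911 genes were past it and lower, against 1124 in the main setting. The members thus stood out less from all genes there. The 6 members reversed by the matrix reference had library-total ratios from 0.610 (Grb10) to 0.840 (Plagl1), above the 0.584 of the matrix sum. The other 4 had ratios below it, the highest being 0.548 for H19. The cause of these differences was not tested.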
